A study of Mus musculus with 4 samples.

Results

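The cells described here are migratory dendritic cells of the ear-draining lymph node that carried no blue fluorescence from an OX40L reporter (BFP-), compared between mice whose ears were treated with MC903 and untreated mice. MC903 is calcipotriol, a vitamin D analogue that is painted on mouse skin to induce an inflammation resembling atopic dermatitis. A cell barcode was counted as a member when it had at least 500 genes, at most 10% mitochondrial UMIs (unique molecular identifiers, each standing for 1 captured transcript), at least 1 UMI of Fscn1 or Ccr7, and no UMI of the T and B cell receptor genes Cd3e, Cd3d, Cd3g, Cd79a and Cd79b. It also had to carry at least 10 counts of the capture's hashtag pair, with 80% or more of them from the BFP- hashtag. This left 3470 untreated and 2831 MC903 barcodes, 6301 of the 15836 barcodes in both matrices.

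All mice were Tnfsf4KI/+, carrying 1 reporter allele in which BFP marks expression of Tnfsf4, the gene of OX40L, so untreated and MC903 groups share that allele. MC903 was applied on days 0, 2 and 4, and the ear-draining nodes were harvested on day 5. The sort took 7000 BFP- and 5000 BFP+ cells per treatment from the B220- CD11cint MHCIIhi gate, and these were marked with hashtag antibodies and loaded together on 1 droplet capture. The sources used here do not give the age, sex or number of mice behind each pool.

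The hashtag oligonucleotides decide which barcodes are compared. They are printed 5′ to 3′ in lower case, as read from the deposited feature table.

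Hashtag2, untreated BFP-: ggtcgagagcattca

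Hashtag4, MC903 BFP-: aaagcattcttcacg

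Migratory dendritic cells leave the skin, mature on the way and enter the draining lymph node along CCR7 ligands, where they present skin antigen to T cells. In MC903-treated skin, keratinocytes release the cytokine TSLP, which acts on dendritic cells through a receptor made of CRLF2 and IL7R and passes its signal to the transcription factor STAT5. Dendritic cells conditioned by TSLP are known for carrying OX40L, making the chemokines CCL17 and CCL22 and priming type 2 helper T cells. BFP- cells are those of the gate without reporter signal in the sort.

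Each population is 1 pool, so there is no replicate and no test of MC903 against untreated. Treatment, droplet capture and sequencing lane changed together and cannot be told apart. Values are UMIs summed over the members, scaled to counts per 1000000 UMIs of the population (CPM), and every interval is an exact 95% interval for 2 Poisson counts, which covers counting error only. A summed level mixes how many cells express a gene with how much each expresses. The median member had 2631.5 UMIs and 1082.5 genes in the untreated pool against 9380 UMIs and 2403 genes after MC903, and the summed UMIs were 13396248 and 28241405. Hashtags were also less clean in the untreated capture. Of the barcodes that passed the RNA filters, 1236 of 5091 untreated and 96 of 4207 MC903 barcodes had under 80% of their pair from either hashtag. Untreated barcodes just outside the limit (75% to 80% of the BFP- hashtag, 209 barcodes) had BFP at 33.8 CPM, those just inside (80% to 85%, 256 barcodes) at 37.6 CPM, and the 2251 barcodes of 95% or more at 2.45 CPM. The 2 captures share 23 cell barcodes, and 24 members have a barcode seen in both.

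Fscn1 and Ccr7, which mark migratory dendritic cells, were part of the rule, so they do not check the label, while Cd74 (9754 and 10950 CPM) and H2-Aa (3722 and 4194 CPM), genes of the MHC class II pathway outside the rule, were abundant in both pools. Markers of other lineages were nonetheless present, and more so in the untreated pool. After each barcode was thinned to 2000 UMIs, 36.4% of untreated and 19.9% of MC903 members held a UMI of a B cell marker, 33.6% and 12.0% one of a monocyte or macrophage marker, and 1.53% and 0.322% one of a granulocyte marker. T cell markers, leaving out those in the rule, were found in 47.2% and 43.0%. Their list includes Il7r, given above as a chain of the TSLP receptor on dendritic cells, so these shares need not be T cell RNA. Summed over each marker list, the level in untreated and MC903 members was 541 and 168 CPM for 14 monocyte and macrophage markers, 481 and 110 CPM for 13 B cell markers, 373 and 302 CPM for 16 T cell markers, and 208 and 2.62 CPM for 12 granulocyte and mast cell markers. No monocyte, macrophage, B cell or T cell marker was at 0 in either pool, and the granulocyte markers S100a8, Retnlg and Ly6g were at 0 after MC903. Sums were also lower for 11 stromal and endothelial markers (62.5 to 13.6 CPM), 6 erythroid markers (15.9 to 0.602 CPM), 12 natural killer and innate lymphoid markers (48.9 to 36.6 CPM) and 10 plasmacytoid dendritic cell markers (377 to 321 CPM). They were 59.6 and 57.3 CPM for 8 plasma cell markers and 9.78 and 15.7 CPM for 10 keratinocyte markers. The rule's condition on lymphocyte receptor genes was set at full depth, so it was stricter for the deeper MC903 barcodes. With it, the median log2 ratio of MC903 to untreated was -2.92 for B cell, -2.54 for T cell and -2.34 for monocyte and macrophage markers. Without it, these medians were -0.99, -0.87 and -0.92. The part of the condition in these differences was not tested.

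Of 5035 genes that reached 20 CPM in at least 1 of the pools, 232 (4.61%) were at least 1.5-fold higher in MC903 BFP- cells and 279 (5.54%) at least 1.5-fold lower. These percentages are the background against which the gene groups below are read, and a group of genes is described by how many of its measured members, those that reached 20 CPM, passed 1.5-fold in each direction. The median of the 5035 genes differed by -0.04 on the log2 scale, and that of all 10613 genes with at least 50 UMIs by -0.11. The median given for a gene group is taken over its members with at least 50 UMIs and is read beside the latter value. Trimmed-mean scaling moved all log2 ratios up by 0.15 and scaling by the median of ratios by 0.10, which changed the split of higher and lower genes from 232 and 279 to 399 and 189, and to 341 and 211. The ratios below are per total UMI, and differences of about this size have no firm sign. Weighting the cells by cluster also moved the counts. When the clusters described below that held at least 20 barcodes of each pool were given the same weight in both pools, 145 genes were higher and 149 lower, of which 119 were among the 232 higher genes. That setting is called the same cluster mix, and its count stands beside the groups whose calls it changed most. The clusters were drawn from both captures without batch correction, partly on genes described here. This setting can therefore also take out differences of treatment or capture, and it does not measure cell mix alone. Some clusters were small, with 22 untreated barcodes in cluster 5 and 36 MC903 barcodes in cluster 6.

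**Figure D1:**
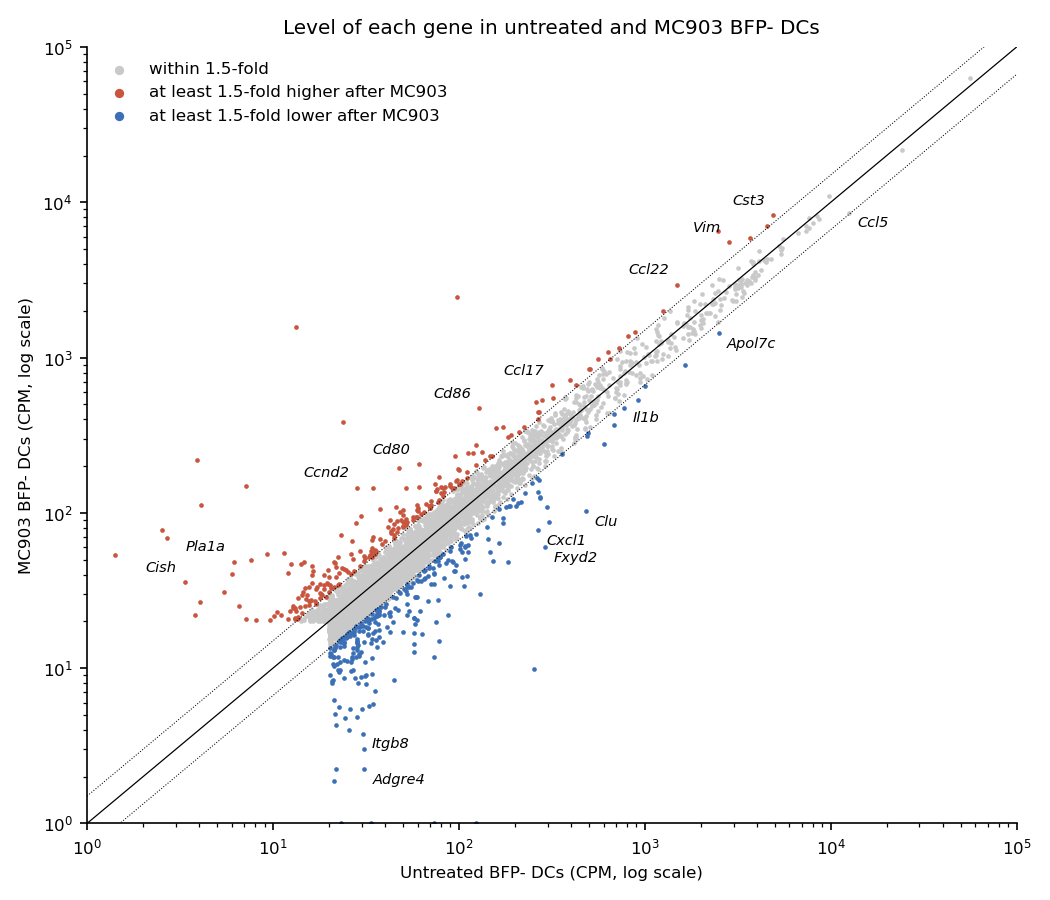
Level of each of the 5035 genes in untreated (horizontal axis) and MC903 (vertical axis) BFP- cells, in CPM on log axes, with levels under 1 CPM drawn at 1. The solid line marks equal levels and the dotted lines 1.5-fold, and the 232 higher genes (red) lie above and the 279 lower genes (blue) below the band of genes within the fold.

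The naming rule took the 15 genes each way whose interval lay farthest from 0, among genes found in at least 5% of thinned barcodes and with at most 5% of their UMIs in 1 barcode. The higher genes were enzymes, signalling regulators and T cell ligands. Pla1a (ENSMUSG00000002847, chr16:38396117-38433145, minus strand), a phospholipase that cuts phosphatidylserine, was at 6.20 CPM in the untreated and 48.4 CPM in the MC903 pool, a log2 ratio of 2.96 (2.64 to 3.30). Mylk, the kinase of myosin light chain, went from 9.33 to 54.4 CPM (2.54, 2.28 to 2.82). Ccnd2, which encodes cyclin D2, went from 28.4 to 144.9 CPM (2.35, 2.20 to 2.50). Hopx, a small homeodomain protein that does not bind DNA, differed by 2.27 (11.4 to 55.2 CPM), and Pkib, an inhibitor of protein kinase A, by 2.08 (34.3 to 145.6 CPM). Stat4, the transcription factor best known downstream of interleukin 12, was at 47.8 and 193.1 CPM (2.01, 1.89 to 2.13).

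The costimulatory ligands Cd86 and Cd80 and the inhibitory ligand Pdcd1lg2 were in the same set of 15, and are described with their family below. The others were Car2, a carbonic anhydrase (1.91, 12.5 to 47.0 CPM), Tcaf2, a regulator of TRP channels (1.73, 14.2 to 46.9 CPM), Tesc, a calcium-binding protein (1.71, 14.7 to 48.2 CPM), and Ramp3, a partner of the calcitonin-like receptors (1.68, 29.9 to 96.0 CPM). Siglecg, an inhibitory sialic acid receptor, was at 23.2 and 72.3 CPM (1.64), and Ikzf4, the transcription factor Eos, at 27.8 and 85.8 CPM (1.62). All 15 were at least 1.5-fold higher in each of the 18 other settings tried. Across these settings, their ratios lay between 0.62 (Tesc) and 3.54 (Pla1a).

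**Figure D2:**
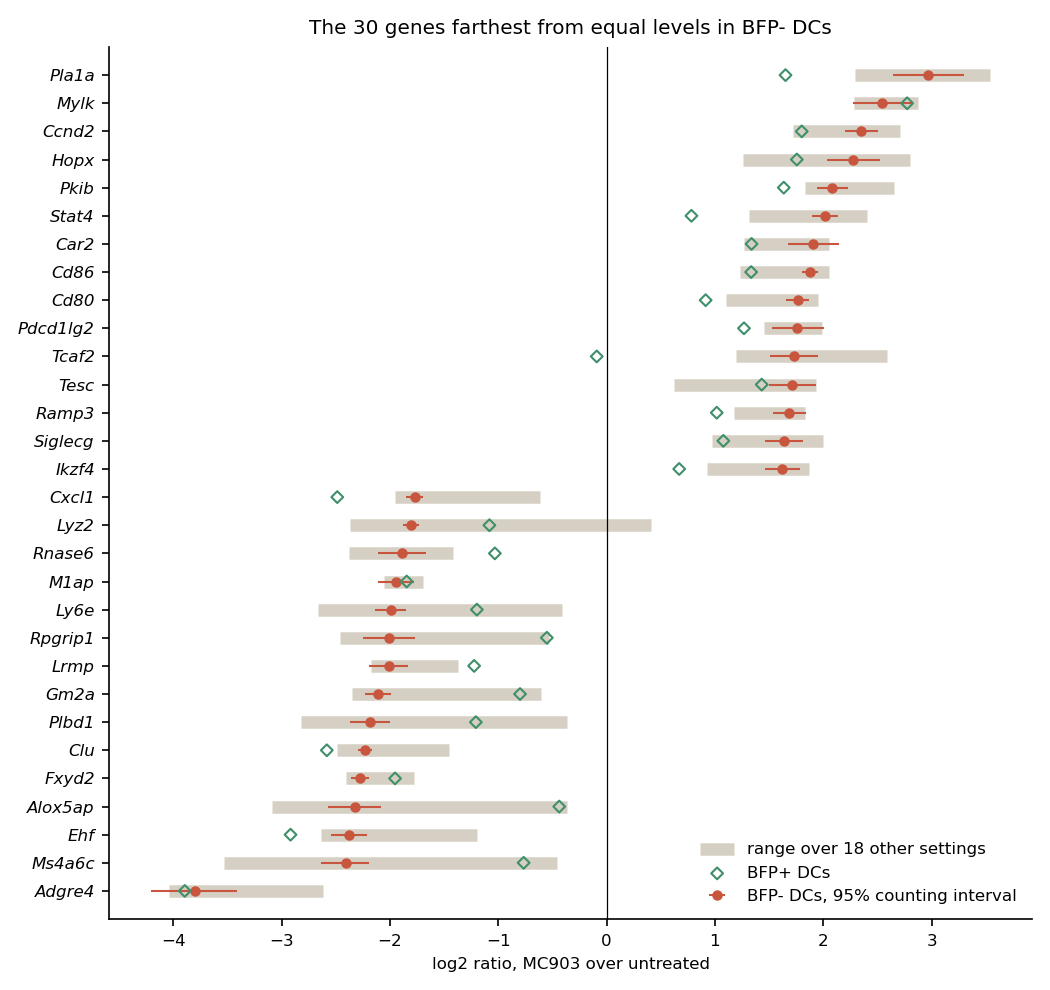
Log2 ratio of MC903 to untreated for the 30 named genes, in BFP- cells (red points with 95% counting intervals) and BFP+ cells (green diamonds), with the range over the 18 other settings as beige bars. In BFP- cells the 15 higher genes lie at 1.62 or above and the 15 lower genes at -1.77 or below, and the bar of Lyz2 reaches 0.41.

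The 15 lower genes included 9 that were at least 1.5-fold lower in each of the 18 other settings. Adgre4, an adhesion receptor of myeloid cells, was at 31.0 CPM in the untreated and 2.23 CPM in the MC903 pool (-3.80). Clu (ENSMUSG00000022037, chr14:65968483-65981547, plus strand), the secreted chaperone clusterin, was at 481 and 103 CPM (-2.23), and Fxyd2, a subunit of the sodium pump, at 290 and 60.02 CPM (-2.27). Ehf, an ETS transcription factor of epithelia and dendritic cells, differed by -2.38 (78.3 to 15.1 CPM), M1ap by -1.95 (63.5 to 16.5 CPM), and the chemokine Cxcl1 by -1.77 (265 to 77.5 CPM). In the B cell barcodes of the untreated capture, these 6 genes were between 3.07 CPM (Adgre4) and 39.9 CPM (Clu).

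The other members of the 9 were also present in B cells. Gm2a, a cofactor of ganglioside breakdown, was at 130 CPM in untreated and 30.1 CPM in MC903 BFP- members (-2.11) and at 99.8 CPM in untreated B cell barcodes. Lrmp differed by -2.01 (57.3 to 14.2 CPM) and Rnase6 by -1.89 (34.0 to 9.21 CPM), beside 120 and 86.0 CPM in those B cell barcodes. The part of B cell RNA in these ratios was not tested.

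The remaining 6 genes of the set depended on how the cells were chosen or weighted. Lyz2, the lysozyme of monocytes and macrophages, was at 303.6 CPM in the untreated and 87.0 CPM in the MC903 pool (-1.80), Ms4a6c at 44.6 and 8.39 CPM (-2.41) and Plbd1 at 57.1 and 12.6 CPM (-2.18). Alox5ap, which presents arachidonic acid to 5-lipoxygenase, was at 35.5 and 7.08 CPM (-2.32), and Ly6e at 87.0 and 21.9 CPM (-1.99). The monocyte and macrophage markers given above were lower beside them, 4 of the 4 that reached 20 CPM, and so were 3 of 4 B cell markers. Ly6e was at 1371 CPM in untreated B cell barcodes.

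At the same cluster mix, these 5 were no longer 1.5-fold apart, with Ms4a6c at -0.46, Ly6e at -0.41, Alox5ap and Plbd1 at -0.36 and Lyz2 at 0.41. With clusters 6 and 9 left out instead, which held macrophage markers and a mix of lymphocyte and cDC1 markers, they lay between -2.34 and -1.51. Rpgrip1, at 31.6 and 7.86 CPM (-2.01), differed by -0.70 among barcodes with at least 5000 UMIs and by -0.53 in the setting with the smallest difference.

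Ligands that dendritic cells show to T cells held many of the higher genes. Of 12 measured costimulatory and checkpoint ligands, 7 were at least 1.5-fold higher and 3 lower. Cd86 (ENSMUSG00000022901, chr16:36603869-36666081, minus strand) was at 128.6 CPM untreated and 472.6 CPM after MC903 (1.88, 1.81 to 1.95). Cd80, which shares its receptors CD28 and CTLA-4, was at 60.7 and 206.2 CPM (1.76, 1.66 to 1.87). Both ligands of PD-1 were among the higher genes, Pdcd1lg2 from 12.1 to 41.0 CPM (1.76, 1.52 to 2.01) and Cd274 from 159 to 354 CPM (1.16). Cd200, whose receptor restrains myeloid cells, was at 51.7 and 144.2 CPM (1.48).

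Cd70, the ligand of CD27, was also higher (0.90), and so was Cd48, a ligand of CD244 (0.65). The ICOS ligand Icosl (-0.90), the poliovirus receptor Pvr (-0.76), which binds CD226 and TIGIT, and the 4-1BB ligand Tnfsf9 (-0.68) were at least 1.5-fold lower. The maturation markers Cd40 (-0.17) and Cd83 (-0.39) did not pass the fold. The group's median log2 ratio was -0.06, and its sign turns under the other scalings. With the same cluster mix the count was 6 higher and 1 lower, with Cd70 at 0.34, Pvr at -0.29 and Tnfsf9 at -0.57.

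Genes of the TSLP and STAT5 pathway gave 4 higher and 2 lower among 18 measured, with a median of 0.11. Cish (ENSMUSG00000032578, chr9:107296026-107302784, plus strand), a STAT5-induced inhibitor of cytokine signalling, was at 3.36 CPM in the untreated and 35.9 CPM in the MC903 pool (3.42, 2.99 to 3.88). Il2ra, the alpha chain of the interleukin 2 receptor, was at 34.5 and 69.6 CPM (1.01), the cytokine Osm at 19.6 and 35.5 CPM (0.85), and Bcl2l1, which encodes the survival protein BCL-XL, at 42.9 and 76.6 CPM (0.84). The count was again 4 higher and 2 lower at the same cluster mix, though Osm was then at 0.52.

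Some other genes that STAT5 is known to act on, whether by raising or lowering them, were lower after MC903. The kinase gene Pim1 was at 922 CPM untreated and 532 CPM after MC903 (-0.79), and Bcl6, a repressor, at 31.8 and 18.5 CPM (-0.78). Among barcodes with at least 5000 UMIs, Pim1 differed by -0.41, and with members thinned before selection Bcl6 differed by -0.46. Socs2 (0.54, 589 to 860 CPM) and Socs1 (0.56), which damp cytokine receptors, were just under the fold. The receptor genes themselves, Crlf2 (-0.33, 29.2 to 23.2 CPM) and Il7r (0.41), did not pass it.

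The vitamin D receptor gene Vdr was at 3.36 and 16.1 CPM (2.26, 1.81 to 2.73), below the 20 CPM needed to be counted. The 2 genes of the vitamin D axis that reached 20 CPM, the receptor partner Rxrb (-0.27) and the hydroxylase Cyp27a1 (-0.57), did not pass the fold.

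STAT5 binds the palindrome TTCNNNGAA, which reads the same on both strands. In RefSeq promoters of GRCm38.p6, taken from 250 bases before to 50 after each start, 8.30% of 32851 held it at least once and 0.457% at least 2 times. Of 19 pathway genes matched, which have 25 promoters, 4 held it in at least 1 promoter. The percentages are per promoter and this count is per gene, so they are not directly comparable. Cish and Bcl6 held it at least 2 times in 1 promoter. Their windows are shown with the motif in capitals, 5′ to 3′ on the strand of the gene. The Cish motifs begin at 0 and 11 bases from the start, within transcript Cish-201. Those of Bcl6 begin at -168, -122 and -88 from 1 start, and another Bcl6 start had 1 motif. Cish and Bcl6 moved in opposite directions here. A match shows only the letters in the window, not whether STAT5 binds there or raises or lowers the gene.

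Cish, chr9:107296654-107296683, plus strand: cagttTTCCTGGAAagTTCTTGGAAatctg

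Bcl6, chr16:23981358-23981456, minus strand: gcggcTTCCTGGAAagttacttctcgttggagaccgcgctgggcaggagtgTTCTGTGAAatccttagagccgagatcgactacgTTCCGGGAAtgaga

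Among 11 measured chemokines, 3 were higher and 4 lower, with a median of -0.43. The 2 ligands of CCR4, the receptor of type 2 helper and regulatory T cells, were both higher. Ccl22 was at 1498 CPM in the untreated and 2954 CPM in the MC903 pool (0.98), and Ccl17 at 318 and 665 CPM (1.06, 1.02 to 1.11). Cxcl10, a ligand of CXCR3, was also higher (0.80), while Cxcl9, which shares that receptor, was lower (-1.24).

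Cxcl1, given above, Cxcl2 (-1.40), which like it attracts neutrophils, and Ccl9 (-1.04) were lower. Ccl5, the most abundant chemokine transcript of both pools, was at 12600 and 8583 CPM (-0.55), just under the fold. Of the chemokines, 3 were higher and 1 lower at the same cluster mix, with Cxcl10 at 0.49, Cxcl2 at -0.31, Cxcl9 at -0.09 and Ccl9 at -0.05, and the median turned to 0.38.

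Cytokine genes gave 1 higher and 5 lower among 10 measured, with a median of -0.28. The higher one was Osm. Csf1, the growth factor of macrophages (-1.68), Ltb, which encodes lymphotoxin beta (-1.26), Tnf (-1.15), Il1b (-0.71, 775 to 475 CPM) and Il18 (-0.62) were lower. The level of Il12b, a subunit of interleukins 12 and 23, differed by 0.30, and that of Il15 by -0.28. None was higher and 2 were lower at the same cluster mix, with Ltb at -0.51, Il1b at -0.16 and Il18 at -0.11.

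Antigen presentation genes differed little per total UMI. In the MHC class II group, 2 of 12 were higher and none lower, namely the master regulator Ciita (0.69) and H2-DMb2 (0.88), a chaperone of peptide loading. The abundant H2-Aa and the invariant chain Cd74 each differed by 0.17. No gene of 21 in the MHC class I group passed the fold, and its median of -0.04 turns sign under the other scalings. Of 17 lysosomal and phagocytic genes, 2 were higher and 3 lower, with a median of -0.34. The protease inhibitor Cst3 was at 4912 and 8273 CPM (0.75), and the cathepsin Ctsz differed by 0.77, while Cybb (-2.54), a subunit of the phagocyte oxidase, Fcgr2b (-2.09), an inhibitory Fc receptor, and Cd68 (-0.81) were lower, beside the lower monocyte and macrophage markers given above. At the same cluster mix, 1 gene of the MHC class II group was higher and 1 lower, with H2-DMb2 at 0.56, and 1 lysosomal gene was higher and 1 lower, with Ctsz at 0.53, Fcgr2b at -0.41 and Cd68 at 0.395. The median of the lysosomal group then turned to 0.093.

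Transcription factors of dendritic cells gave 4 higher and 2 lower among 20, with a median of 0.02. Irf4, needed by type 2 conventional dendritic cells (cDC2) for migration, differed by 0.90, Runx3 by 0.74 and Nfil3 by 0.63, besides Ikzf4. Notch2, a receptor that shapes cDC2, was lower (-1.56), and so was Bcl11a (-0.99). Irf8 (0.31) and Batf3 (0.39), factors of type 1 cells (cDC1), did not pass the fold. At the same cluster mix only Ikzf4 was still higher and only Notch2 still lower, with Irf4 at 0.36, Runx3 at 0.54, Nfil3 at 0.43 and Bcl11a at -0.26.

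Subset markers were mostly lower. Of 9 measured cDC2 markers, 2 were higher, Ccl17 and Irf4, and 4 lower, among them Cd7 (-3.30) and the lectin genes Cd209d (-2.64) and Cd209a (-2.57). Of 4 cDC1 markers, Naaa (-1.23) and Wdfy4 (-1.12) were lower and none higher, and Xcr1, the chemokine receptor that defines these cells, differed by -2.13, and by -0.32 without clusters 6 and 9. For Langerhans cells, the dendritic cells of the epidermis, 3 of 4 were lower, namely Mfge8 (-1.46, 299 to 108.5 CPM), Ltc4s (-1.12) and Epcam (-0.72), and Plek2 was higher (2.73, 4.0 to 26.7 CPM). Their lectin Cd207, langerin, was at 14.6 and 3.01 CPM (-2.27).

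C-type lectin receptors gave 1 higher and 4 lower of 6. Ly75, the endocytic receptor DEC-205, was at 98.9 and 191 CPM (0.95), whereas Clec12a (-1.52) and Mgl2 (-0.61) were lower with the CD209 genes. Summed over all their markers, however, the cDC1 level was 703 and 802 CPM and the cDC2 level 885 and 1184 CPM, higher after MC903 where the medians were lower, while the Langerhans level was 648 and 300.3 CPM. At the same cluster mix, the median ratio of the lectin group turned from -1.76 to 0.51, that of the cDC1 group from -1.29 to 0.36, and that of the cDC2 group from -0.61 to 0.15, and Cd209a was at 0.038, Cd209d at -0.23, Mgl2 at 1.57, Naaa at 0.23, Wdfy4 at 0.68 and Ly75 at 0.53. Counts were then 1 higher and none lower for cDC1, 2 and none for cDC2, and 1 and 1 for the lectins. The Langerhans count was again 1 higher and 3 lower, with a median of -0.69 against -0.92 and Mfge8 at -1.37. The share of thinned barcodes with a UMI of a Langerhans marker was 61.3% untreated and 33.6% after MC903. With at least 3 such UMIs it was 15.7% and 5.83%. The cluster holding Langerhans markers, described below, was larger after MC903. These values go in different directions and do not settle the share of Langerhans-like barcodes.

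In a group of maturation and tolerance genes of migratory dendritic cells, 2 of 24 were higher and 2 lower, with a median of 0.20. Itgb8, the integrin chain that activates TGF-beta, was at 30.5 and 3.79 CPM (-3.01), and Aldh1a2, the enzyme of retinoic acid synthesis, differed by -1.09. The higher genes, Stat4 and Cd200, are given above. The NF-kB group held no higher gene and 3 lower of 17, all feedback regulators, namely Nfkbiz (-0.87), Nfkbid (-0.77) and Tnfaip3 (-0.65), and the subunit gene Nfkb1 differed by 0.54. None of the 17 passed the fold at the same cluster mix, and these regulators were at -0.40, -0.34 and -0.49. Of 19 survival genes, Bcl2l14 (0.92) and Bcl2l1 were higher and none lower.

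The cytoskeleton group had 5 higher and 1 lower gene of 22, with a median of 0.33. Vim, the intermediate filament vimentin, was at 2845 CPM in the untreated and 5529 CPM in the MC903 pool (0.96). The small GTPase gene Rhoc differed by 0.92, the actin-binding Coro1a by 0.74, the tetraspanin Cd81 by 0.74 and the actin gene Actg1 by 0.63. Anxa1, an annexin that limits inflammation, was lower (-1.32). Counts at the same cluster mix were 4 higher and none lower, with Actg1 at 0.50, and Anxa1 differed by -0.76 but no longer reached 20 CPM.

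Integrin genes were split, with 1 higher and 2 lower of 7. Itga6, a laminin receptor chain, was higher (1.37), and Itgax, whose product CD11c was used in the sort, was at 31.7 and 9.0 CPM (-1.82). Among 5 chemokine and guidance receptors, Gpr183, a receptor for oxysterols, was higher (0.74) and Cxcr4 lower (-1.10). Itgax was at -0.51 and Gpr183 at 0.42 at the same cluster mix.

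In the eicosanoid list, 4 of 6 genes were lower and 1 higher. The higher gene was Pla1a, given above as a phosphatidylserine phospholipase rather than an enzyme of eicosanoid synthesis. Ptgs2, which encodes the inducible cyclooxygenase, was at 151.6 and 49.0 CPM (-1.63), and Lta4h, an enzyme of leukotriene B4 synthesis, differed by -0.61, beside Alox5ap and Ltc4s. Only 2 were lower at the same cluster mix, with Lta4h at -0.34. Metabolic groups differed little. Cholesterol synthesis gave 3 higher (Mvk 0.75, Hsd17b7 0.67, Fdps 0.62) and 1 lower (Insig1 -0.80, a brake on the pathway) of 18. Only Hsd17b7 (0.67) passed the fold at the same cluster mix, with Mvk at 0.56, Fdps at 0.42 and Insig1 at -0.45. Glycolysis gave 1 higher (Gapdh 0.60) and 1 lower (Adm -0.73) of 13, oxidative phosphorylation none of 28 and the unfolded protein and integrated stress responses none of 16. The medians of glycolysis, -0.02, and of oxidative phosphorylation, -0.06, turn sign under the other scalings.

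Among interferon-stimulated genes, the ubiquitin-like Isg15 was higher (1.07) and none was lower, with a median of -0.02 for the group whose sign also turns with the scaling. None of 4 pattern recognition genes passed the fold. Cell cycle genes gave 1 higher, Ccnd2, and 2 lower, Stmn1 (-0.74) and Mki67 (-0.59), of 13, with a median of -0.41. Both turned at the same cluster mix, to 0.64 and 0.46, and the median to 0.079.

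Immediate early and heat shock genes, which respond to handling and dissociation as well as to signalling, gave no higher and 6 lower of 24, with a median of -0.48. Nr4a1, induced by antigen receptor and stress signals, differed by -1.41, the phosphatase gene Dusp2 by -0.97, Fosl2 by -0.80 and Atf3 by -0.71. The heat shock genes Hspa1b (-0.91) and Hspa1a (-0.67) are near-identical copies, so the share of each is uncertain. Jun differed in the other direction (0.55), under the fold. At the same cluster mix 4 genes were lower and none higher, with Fosl2 at -0.25 and Atf3 at -0.37.

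**Figure D3:**
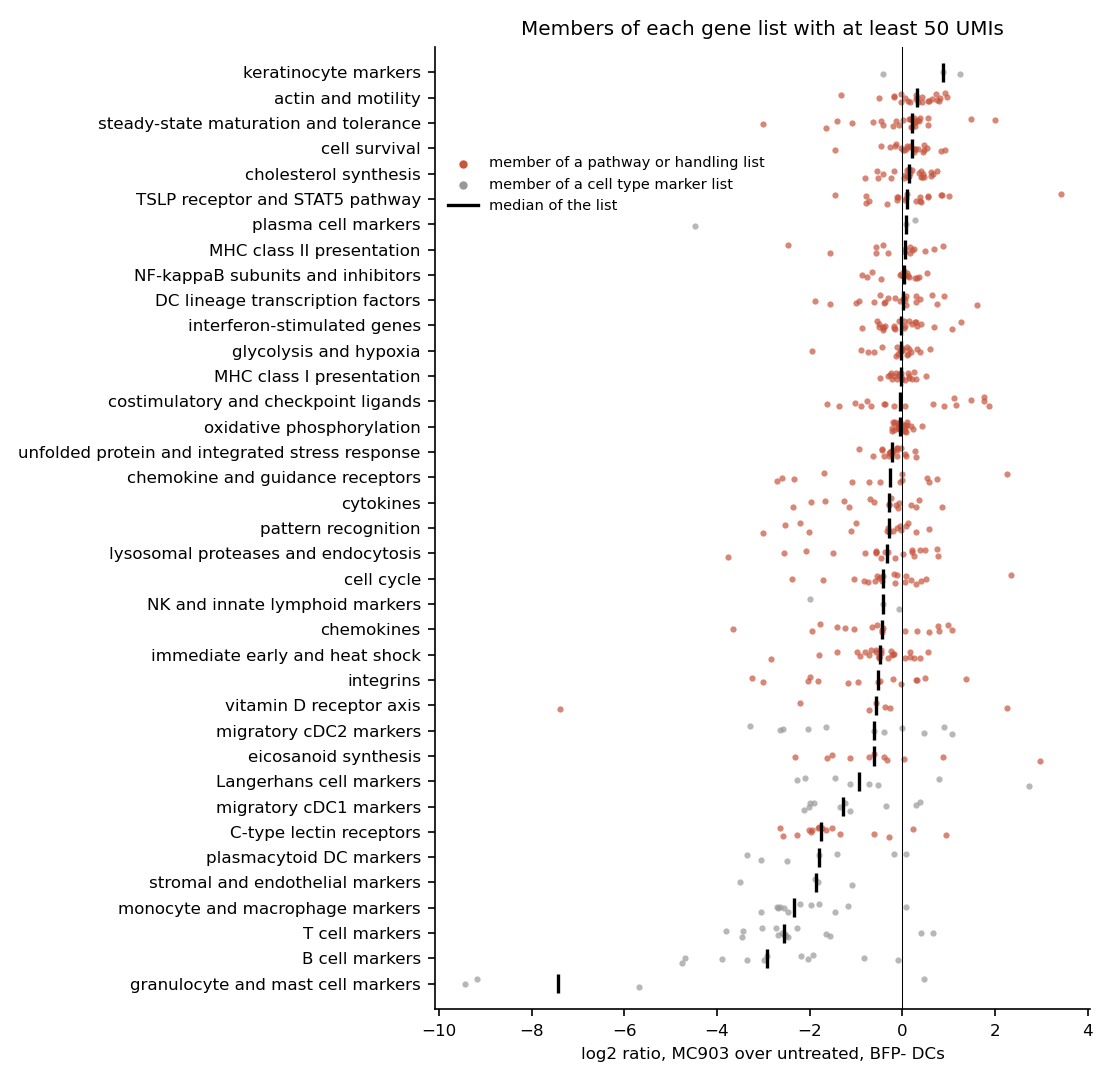
Log2 ratio of MC903 to untreated in BFP- cells for each gene group's members with at least 50 UMIs, 1 point per gene, red for pathway and handling lists and grey for cell type markers, with the median as a black bar. The medians of the actin, cholesterol and survival lists lie between 0.15 and 0.33, and those of monocyte and macrophage (-2.34), T cell (-2.54), B cell (-2.92) and granulocyte markers (-7.44) lie below -2. Without the rule's condition on lymphocyte genes, the monocyte and macrophage, T cell and B cell medians were -0.92, -0.87 and -0.99.

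To see which differences were found within similar cells, 5607 members with at least 2000 UMIs were clustered on 1973 variable genes into 10 clusters. These were left unnamed, and since the genes described here helped to draw them, the values inside them are a description. Clusters 0, 2, 3 and 8 held at least 100 barcodes of each pool, with 1434 untreated and 111 MC903 barcodes in cluster 0, 227 and 552 in cluster 2, 281 and 425 in cluster 3, and 217 and 385 in cluster 8. The untreated pool was thus concentrated in cluster 0. Cluster 2, where 4 Langerhans markers (Cd207, Epcam, Mfge8 and Plek2) were found, held 8.07% of untreated and 19.8% of MC903 barcodes. Its leading genes were Bpifa2, Smr3a, Chia1, Amy1 and Tcaf2, not these markers. With finer clustering, 2 untreated and 75 MC903 barcodes led by Bpifa2 and Smr3a formed a cluster of their own. The share of cluster 2 was thus higher after MC903, while the summed level of the Langerhans markers was lower. The share of barcodes with a UMI of a Langerhans marker, given above, was also lower. Cluster 6, where the macrophage markers were found together with Cd209a and Mgl2, held 305 untreated and 36 MC903 barcodes, and cluster 9 held 187 and 9. In cluster 9, 9 T cell, 8 B cell, 7 natural killer and 7 cDC1 markers were found, and its leading genes were Ighg2c, Igkc, Gzma, Nkg7 and Xcr1.

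Inside these 4 clusters, Cd86 was higher after MC903 by 1.42, 2.07, 1.64 and 0.98 in the order 0, 2, 3 and 8. Stat4 was higher by 1.43, 2.25, 2.58 and 2.22, and Mylk by 2.50, 2.43, 3.25 and 2.31. The range was 1.59 to 2.52 for Pkib, 1.10 to 1.39 for Ikzf4, 0.39 to 1.28 for Ccl22 and 0.60 to 2.08 for Ccl17. These genes were therefore higher in each of the 4 clusters.

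Lower genes with the same sign in all 4 were Clu (-2.23 to -1.18), Fxyd2 (-2.16 to -0.96), M1ap (-1.98 to -1.33), Mfge8 (-1.70 to -0.91), Notch2 (-1.33 to -0.81), Ltc4s (-1.08 to -0.48) and Pim1 (-0.60 to -0.35). Others depended on the cluster. Cd80 was higher by 1.18, 2.03 and 2.43 in clusters 0, 2 and 3 but by 0.19 in cluster 8. Ccnd2 was higher by 1.64, 3.22 and 3.69 in clusters 0, 2 and 8 and differed by -0.03 in cluster 3. Il1b was lower in clusters 0 and 3 (-0.31 and -0.59) and higher in clusters 2 and 8 (0.76 and 1.44). Tcaf2, among the 15 higher genes, was lower in cluster 0 (-1.48, -3.16 to -0.18) and higher in cluster 2 (1.83). Cxcl1, among the 15 lower genes, differed by -0.21, 0.06, -0.67 and -2.38 in clusters 0, 2, 3 and 8. Isg15 was lower in cluster 3 (-1.42) and higher in the other three (1.56, 0.68 and 2.25).

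**Figure D4:**
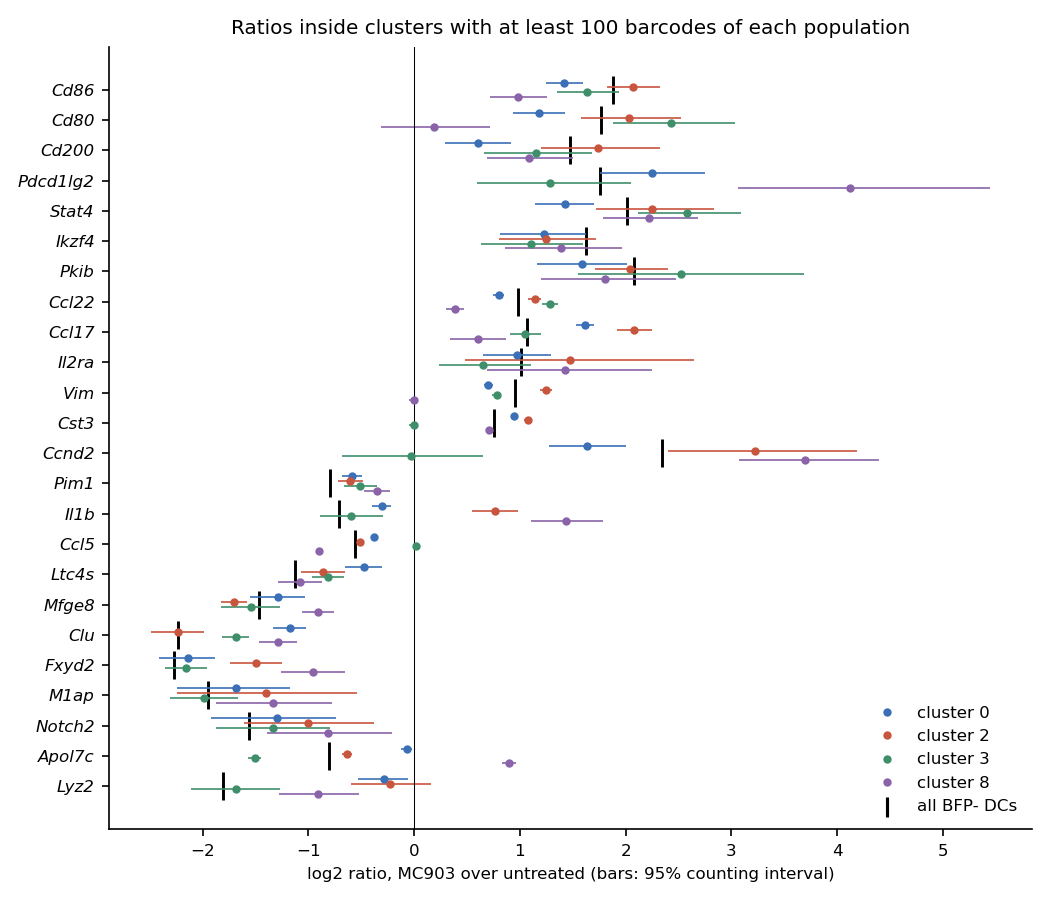
Log2 ratio of MC903 to untreated inside the 4 clusters with at least 100 barcodes of each pool (coloured points with 95% counting intervals) and over all BFP- members (black bars). Cd86, Stat4 and Ccl22 lie above 0 and Clu, Fxyd2 and Mfge8 below 0 in all 4 clusters, while Il1b and Apol7c lie on both sides.

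Shares of cells were compared after thinning each member to 2000 UMIs, which left 2813 untreated and 2794 MC903 barcodes and dropped 657 and 37 as too shallow. Cd86 was found in 20.1% of untreated members (exact binomial interval 18.7% to 21.7%) and 45.5% of MC903 members (43.6% to 47.3%). Cd80 was found in 10.5% and 27.9%, Stat4 in 9.60% and 26.5%, Cd200 in 9.03% and 21.8%, and Cish in 0.604% and 4.51%. The higher summed level of these genes therefore came with more barcodes holding a UMI.

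The CCR4 ligands differed in another way. Ccl17 was found in 27.3% of untreated and 25.4% of MC903 members, but the share with at least 5 UMIs was 2.52% and 6.12%, and the mean among barcodes with a UMI was 2.28 and 4.32 UMIs. Ccl22 was found in 70.4% and 75.7%, and with at least 5 UMIs in 18.4% and 33.1%. For these 2 chemokines the summed difference thus lay mainly in UMIs per positive barcode.

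Among the lower genes, Clu was found in 42.8% of untreated and 10.7% of MC903 members, Fxyd2 in 35.3% and 9.27%, and Mfge8 in 31.6% and 13.0%. Apol7c, an apolipoprotein L gene of mature dendritic cells, was found in 87.3% and 47.4%, while its mean among barcodes with a UMI was 5.41 and 5.85. Its summed level was 2503 and 1430 CPM (-0.81).

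Free RNA gives UMIs in cells that do not express a gene, so the same captures' B cell barcodes, 126 untreated with a median of 3602 UMIs and 324 MC903 with a median of 3181 UMIs, were read beside these shares. Cd80 was found in 1.59% of untreated and 4.32% of MC903 B cell barcodes, Ccl17 in 3.17% and 4.63%, Fxyd2 in 3.17% and 0.31%, and Clu in 12.7% and 1.23%. The B cell barcodes were not thinned, so the depths differ, and those shares still lie far below the members' own. Apol7c was found in 26.2% and 8.95%, Ccl22 in 22.2% and 29.0%, and Ccl5 in 67.5% and 38.9%, so UMIs of these abundant genes were common in barcodes called B cells. Whether they came from free RNA was not tested. Cish was found in 1.59% of untreated B cell barcodes (0.19% to 5.62%), an interval that holds the 0.604% of untreated members. With so few barcodes and unlike depth, the untreated Cish share cannot be told from background. B cells express Cd86 and Stat4 themselves, so they give no background for those genes.

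**Figure D5:**
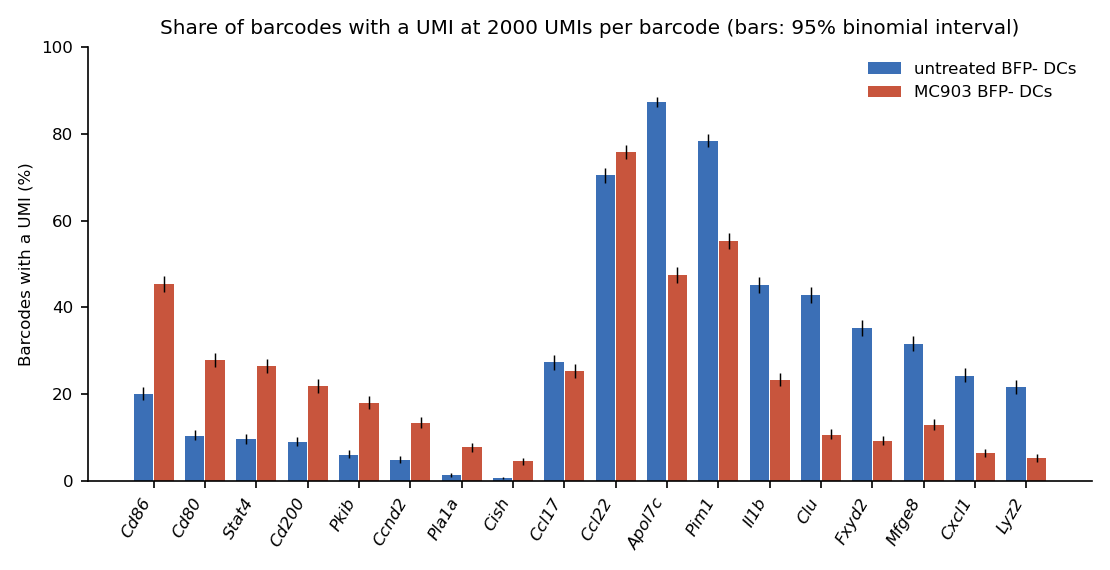
Share of BFP- members with a UMI of each gene after thinning to 2000 UMIs, in percent with exact 95% binomial intervals, untreated and MC903. Cd86 goes from 20.1% to 45.5% and Clu from 42.8% to 10.7%, while Ccl17 stays near 27.3% and 25.4%.

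BFP+ cells came from the same 2 captures, 385 untreated and 1280 MC903 barcodes, and share treatment and lane with the BFP- cells. Of 4952 genes tested there, 185 (3.74%) were higher and 221 (4.46%) lower. Among 4771 genes tested in both, 97 were higher in both populations, out of 222 in BFP- and 161 in BFP+ cells. Another 112 were lower in both, out of 200 and 195. No gene was higher in BFP- and lower in BFP+ cells past the fold, and 2 were lower in BFP- and higher in BFP+ cells, Plac8 and Hilpda, a lipid droplet gene induced by hypoxia.

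Several genes that were higher in both differed more in BFP- cells. Stat4 differed by 2.01 in BFP- and 0.78 in BFP+ cells, 1.23 apart (1.04 to 1.42), Pla1a by 2.96 and 1.65, 1.31 apart (0.85 to 1.77), Cd80 by 1.76 and 0.91, and Cd86 by 1.88 and 1.33. Ccl17 differed by 1.06 in BFP- and -0.09 in BFP+ cells, 1.16 apart (1.05 to 1.27). Apol7c was lower in both, by -0.81 and -1.63. These intervals cover counting error only, and no test of the difference between the populations was possible with 1 pool of each.

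Tnfsf4, the reporter's gene, was at 4.25 CPM in untreated and 4.43 CPM in MC903 BFP- cells (0.06, -0.41 to 0.54). The BFP transcript was at 6.94 and 10.3 CPM (0.57, 0.23 to 0.92), against 73.2 and 109 CPM in BFP+ cells. Both values moved with how the hashtags were read. Over the other settings, the ratio of Tnfsf4 ran from -1.16 to 1.18 and that of BFP from -0.06 to 3.13, and in barcodes with at least 95% of the BFP- hashtag BFP was at 2.45 CPM untreated and 10.1 CPM after MC903. A difference in Tnfsf4 between the BFP- pools was not detectable at this depth.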

How the data were processed

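The authors deposited gene and hashtag counts (whole UMIs per barcode) of 2 10x captures, which the file headers trace to Cell Ranger 3.1.0, on GRCm38 (mm10) per the submitters' processing notes. The total count was 13396248 UMIs for untreated and 28241405 UMIs for MC903 BFP- members. From the deposited counts, UMIs of the members were summed, divided by the population's total and compared as log2 ratios in Python 3.11.15 (numpy 2.4.6, pandas 2.3.3, scipy 1.17.1). A gene with 0 UMIs in a pool was set to 3 counts. A gene was called at 1.5-fold and 20 CPM in the higher pool, and members of a group needed 50 UMIs. Clusters came from scanpy 1.11.5 (Leiden). Seurat 5.3.0 (HTODemux) and edgeR 4.0.16 (trimmed-mean scaling only) served alternatives. Doublets were treated by dropping mixed hashtags and lymphocyte receptor UMIs, with no caller. Named genes were the 15 each way whose interval bound was farthest from 0, among genes without a dominant barcode and in at least 5% of thinned barcodes, the 4 largest ratios and 2 highest levels of each group, the 5 each way that differed most from BFP+ cells, Tnfsf4 and BFP. Other members of a group are named because they passed the fold or lay near it. Members and lists were chosen with earlier results of these data known. The interval was tried on simulated Poisson counts, the model it assumes, so this does not cover spread between barcodes or pools.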

Additional observations from a re-analysis of the deposited data

Results flagged for a closer look

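Among the genes taken by the naming rule that reached 20 CPM in both populations, 6 had a counting interval above 0 in BFP- or BFP+ cells and below 0 in the other. The intervals cover counting error only, and the difference was not tested for any of them. Plac8, a gene of lymphoid and myeloid cells, was at 94.5 and 41.9 CPM in untreated and MC903 BFP- cells and at 17.6 and 28.5 CPM in BFP+ cells, a difference of log2 ratios of -1.87 (-2.33 to -1.40). Rac2, the GTPase of blood cells, was at 52.3 and 36.6 CPM against 57.6 and 85.4 CPM, a difference of -1.08 (-1.37 to -0.79). Rhob, an immediate early GTPase gene, was at 77.9 and 57.2 CPM against 36.8 and 58.1 CPM, a difference of -1.11 (-1.44 to -0.78). At the same cluster mix the BFP- ratio was 0.45 for Plac8 and 0.19 for Rac2. The remaining differences were small, 0.17 for Id2 (0.04 and -0.14), 0.32 for Ly96 (0.11 and -0.20) and -0.28 for Actb (-0.17 and 0.11).

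Barcodes with 20% to 60% of their pair from the BFP- hashtag entered no comparison, and BFP was at 71.4 CPM in the untreated and 68.0 CPM in the MC903 ones, near the level of BFP+ cells.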

How the results depend on the processing

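No paired analysis was possible because each group is 1 pool with no replicate number. The count of higher genes, 232, was 399 under trimmed-mean scaling, 145 with the clusters weighted to the same mix, 149 with a minimum of 50 CPM, 1030 with no minimum and 72 at 2-fold. The count of lower genes, 279, was 149 with the same mix, 526 at 10 CPM, 124 at 50 CPM, 4191 with no minimum and 118 at 2-fold. HTODemux hashtag calls, which kept only 625 untreated and 2068 MC903 barcodes, gave 253 and 291. Of these, 208 and 203 were among the main calls, and 2 went in the opposite direction. Leaving out clusters 6 and 9, chosen after seeing the data, gave 245 and 236. With the same mix, medians turned to 0.51 for C-type lectins, 0.36 for cDC1 and 0.15 for cDC2 markers, 0.38 for chemokines, 0.093 for lysosomal, 0.079 for cell cycle, 0.039 for chemokine and guidance receptor, 0.017 for pattern recognition, 0.15 for costimulatory, 0.23 for glycolysis and 0.18 for interferon-stimulated genes, and ratios to 0.41 for Lyz2, 0.45 for Plac8, 0.038 for Cd209a, 1.57 for Mgl2, 0.23 for Naaa, 0.68 for Wdfy4, 0.395 for Cd68, 0.64 for Stmn1 and 0.46 for Mki67. Mgl2 also turned with HTODemux calls (0.59) and in barcodes of at least 5000 UMIs and a 95% hashtag share (0.015). The keratinocyte median turned to -0.37 and Hilpda to 0.065 without members holding a UMI of another lineage's marker, also chosen after seeing the data. Of the group medians under alternatives, 545 stayed within the counting interval, 126 moved and 4 that were past the fold reversed, and of the named genes' ratios 2991, 1759 and 12. The causes were not tested. The untreated pool's depth limits what can be read of genes under 20 CPM.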

Other observations

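Some genes outside the naming rule, picked here after their values were seen, also stood apart. Fabp5, a fatty acid-binding protein, was at 2482 CPM in untreated and 6510 CPM in MC903 BFP- cells (log2 ratio 1.39). Ptpn1, a phosphatase that acts on cytokine receptor kinases, was at 94.9 and 233 CPM (1.30), and the Notch ligand gene Dll4 at 6.57 and 25.2 CPM (1.94). Htr7, a serotonin receptor, was at 5.45 and 30.8 CPM (2.50), and Thy1 at 6.05 and 40.1 CPM (2.73). The ratio of Thy1 ran from 1.30 with no condition on lymphocyte genes to 5.66 in barcodes of at least 5000 UMIs. All of these were higher after MC903.

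The largest ratios of all belonged to transcripts of secretory glands. Bpifa2 was at 97.4 CPM untreated and 2472 CPM after MC903 (4.67), and Smr3a at 13.4 and 1562 CPM (6.87). Of the Bpifa2 UMIs, 95.9% in the untreated and 89.1% in the MC903 pool lay in 1 barcode. The same holds for Smr3a with 89.4% and 88.6%. After thinning, a UMI of Bpifa2 was still found in 12.5% of MC903 and 0.75% of untreated members. S100a8, a granulocyte gene, was at 73.8 CPM untreated and at 0 after MC903, with 19.2% of its untreated UMIs in 1 barcode.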
